A study of Homo sapiens with 6 samples.

Results

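The genes described here are 45 histone lysine methyltransferases and demethylases, measured by bulk RNA-seq in human naive and primed embryonic stem cells. The list leaves out the Polycomb complex PRC2 and some other family genes, among them SETDB1. They were taken by symbol from a list of genes, by a rule that uses no measured value, and they are 45 of the 48183 gene names in the count table. The list itself was drawn up with earlier results of these data known. All 45 had enough counts to be tested. By the residue assigned to them here, 21 are grouped as methyltransferases and 19 as demethylases, and 5 belong to the same families without a settled histone residue. Each gene is placed in a single group. The groups do not list every residue a gene may act on, and activity on the assigned residue was not checked. The values are of transcripts, and neither the enzymes nor the histone marks were measured in these files.

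The 6 libraries were 4 of naive and 2 of primed cells. All came from human ESCs that carry EOS-GFP, a reporter of the naive state, which the labels place in the line H1 and the methods of the study in the line H9. EOS primed is the untreated reporter line. CA-p38 primed is the same kind of line with a doxycycline-inducible, constitutively active form of the kinase p38, without naive induction. Per the methods of the study, doxycycline was given when this line was made, and cells positive for its fluorescent marker mCherry were sorted. The line had therefore been exposed to doxycycline and sorted, unlike what is stated for the EOS line. AICAR naive 1 and AICAR naive 2 were induced from the EOS line with AICAR, an activator of the kinase AMPK, and VPA naive from the same line with valproic acid, an inhibitor of histone deacetylases. CA-p38 naive was induced from the CA-p38 line with doxycycline. Naive cells were expanded in PXGL medium, which contains PD0325901, XAV939, Gö6983 and LIF, and AICAR and doxycycline were withdrawn for this expansion. The methods of the study place naive cells on mouse feeder cells. The study also moved CA-p38-induced cells to PXGL without feeders, and which culture gave CA-p38 naive is not stated. RNA of naive cells was taken after a sort for the surface markers CD75 and SUSD2, whereas primed cells were grown without feeders in AK02N medium. State, medium, feeders and sorting therefore cannot be told apart in this comparison, and the AICAR libraries, which the study gives as neighbouring passages after inductions of equal length, are not stated to come from separate inductions, so p-values measure the spread between these libraries. Each parental line has 1 primed library.

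Total counts were 46823699 to 54277064 per library. Values are given as CPM, counts relative to the size of the library after TMM scaling, and levels of different genes are compared only as CPM per kb of the canonical transcript. Of the marker genes, 8 of the naive state summed to 5066 to 5989 CPM in naive and 8.501 to 12.26 CPM in primed libraries. The 8 primed markers summed to 83.3 to 111.3 CPM in naive and 2531 to 3100 CPM in primed libraries. The 8 fibroblast markers summed to 30.9 to 72.9 CPM in naive and 191 to 209 CPM in primed libraries, with FAP at 0 CPM in all libraries except AICAR naive 2, where it had 0.0402 CPM. These markers were split, so their sum does not rank the states by fibroblast content. COL1A1, COL1A2, POSTN and PDGFRB were lower in naive libraries. COL3A1, LUM and DCN leaned higher without passing, and COL3A1 had 16.6 CPM in CA-p38 naive and 2.19 CPM in CA-p38 primed. The trophectoderm, endoderm and neural marker sums did not pass 18.0, 30.5 and 7.91 CPM in any library. The trophectoderm markers summed to 16.8 to 18.0 CPM in naive and 3.84 to 5.33 CPM in primed libraries. Of these, GATA2, CDX2, HAND1 and KRT7 were higher in naive libraries, GATA3 did not pass, and VGLL1 was not tested. The neural markers summed to 1.31 to 3.15 CPM in naive and 7.25 to 7.91 CPM in primed libraries. Within the endoderm markers, GATA4 was higher in naive libraries, and SOX17 and FOXA2 were higher in primed libraries. The AICAR libraries were not the same library deposited again, since the chi-square between their counts was 26.8 per gene, within the 25.4 to 47.0 of the other naive pairs, and each was kept as a replicate.

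Lysine methyltransferases move methyl groups from S-adenosylmethionine to lysine residues of histones. The demethylases KDM1A and KDM1B are flavin-dependent oxidases, and the Jumonji enzymes (KDM2 to KDM8, JMJD1C, PHF2 and PHF8) use iron, oxygen and 2-oxoglutarate. H3K4 methylation marks promoters and enhancers, H3K9 methylation marks heterochromatin, H3K27 methylation is the Polycomb mark, and H3K36 and H3K79 methylation lie over transcribed genes. H4K20 methylation is tied to the cell cycle and to compact chromatin. Naive human cells resemble the pre-implantation epiblast, in which many chromatin marks are being reset.

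The promoters of the members with the highest fold changes (KDM6B and KDM4C) and the lowest (JMJD1C and KDM4D) are shown because these genes mark the ends of the range reported next. Each is the run of 250 bases before the RefSeq start on GRCh38.p14, written 5′ to 3′ on the gene's strand, with every CG dinucleotide in capitals. They lie at chr17:7833967-7834216 (plus strand) for KDM6B, chr9:6757723-6757972 (plus strand) for KDM4C, chr10:63521891-63522140 (minus strand) for JMJD1C and chr11:94973459-94973708 (plus strand) for KDM4D. The GENCODE gene of KDM4C starts further upstream, so that its RefSeq promoter lies inside the gene.
KDM6B: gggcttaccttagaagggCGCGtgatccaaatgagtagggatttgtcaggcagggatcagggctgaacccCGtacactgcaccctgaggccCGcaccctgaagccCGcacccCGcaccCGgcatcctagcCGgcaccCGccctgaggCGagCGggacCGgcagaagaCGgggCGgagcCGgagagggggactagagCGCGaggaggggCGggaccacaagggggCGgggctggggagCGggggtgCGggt
KDM4C: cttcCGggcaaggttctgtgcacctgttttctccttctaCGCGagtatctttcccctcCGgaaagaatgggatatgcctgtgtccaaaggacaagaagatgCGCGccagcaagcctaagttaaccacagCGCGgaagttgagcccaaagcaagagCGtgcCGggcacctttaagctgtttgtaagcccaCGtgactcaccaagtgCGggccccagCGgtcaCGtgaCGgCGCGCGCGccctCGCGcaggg
JMJD1C: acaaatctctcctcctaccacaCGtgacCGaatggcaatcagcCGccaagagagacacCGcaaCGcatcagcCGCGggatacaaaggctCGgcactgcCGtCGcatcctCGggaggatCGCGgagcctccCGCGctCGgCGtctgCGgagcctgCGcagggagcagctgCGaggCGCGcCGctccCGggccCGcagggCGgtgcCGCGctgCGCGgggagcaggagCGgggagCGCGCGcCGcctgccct
KDM4D: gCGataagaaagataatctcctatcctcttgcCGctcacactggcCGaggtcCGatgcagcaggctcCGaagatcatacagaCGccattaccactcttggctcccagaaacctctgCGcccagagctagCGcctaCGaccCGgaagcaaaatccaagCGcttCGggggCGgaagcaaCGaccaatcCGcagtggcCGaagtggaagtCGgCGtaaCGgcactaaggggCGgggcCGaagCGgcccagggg
These runs hold 21, 21, 35 and 22 CG dinucleotides, and their ratios of observed to expected CG are 0.701, 0.959, 1.08 and 0.953. Both ends of the range of fold changes thus have CG-rich promoters. RefSeq promoters were at hand for 42 of the 45 members, and their median CG ratio was 0.927, against 0.539 over 27305 promoters. The comparison is not matched, here and for the letters below. Members were given the start nearest to the GENCODE gene start. The 27305 are the promoter with the lowest coordinate for each symbol, without selection by expression. The letters GGGCGG, searched on both strands, occur in 32 of the 42 (76.2%) and in 41.6% of all promoters of this length. They occur in 18 of 20 members that were lower in naive cells, in 7 of 12 that were higher and in 7 of 10 that did not pass. The letters ACGTG, on either strand, occur in 10 of the 42 (23.8%) and in 18.5% of all. These are matches of letters and no test was made of them.

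Naive and primed libraries differed for 34 of the 45 members, 13 higher and 21 lower in naive cells, and 11 did not pass (edgeR quasi-likelihood test, p-values adjusted by Benjamini-Hochberg over 26497 names, threshold 0.05). The share of all names called was 53.1%, with 6893 names higher and 7165 lower. Among protein-coding genes alone, the closer background for these enzymes, 64.7% were called, 27.4% higher and 37.3% lower. Neither background is matched for expression level, here and for the partner genes below. With at least 10 counts in every library, 11904 of 19813 names were called, beside 14058 of 26497 in the main fit. The members' shares were 75.6%, 28.9% and 46.7%. Their median log2 fold change, naive over primed and written log2FC from here on, was -0.25, beside 0.11 over all names and -0.13 over protein-coding genes. Naive and primed libraries did not overlap for 36 members (80.0%), against 64.9% of all names and 74.3% of protein-coding genes. At least 2-fold changes among called genes were 4 higher (KMT2C, KDM4C, KDM6B and KMT5C) and 8 lower (KMT2A, SUV39H2, EHMT2, JMJD1C, KDM4D, NSD2, KMT2E and KDM8), against 18.6% and 16.7% of all names and 17.3% and 21.9% of protein-coding genes.

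**Figure D1:**
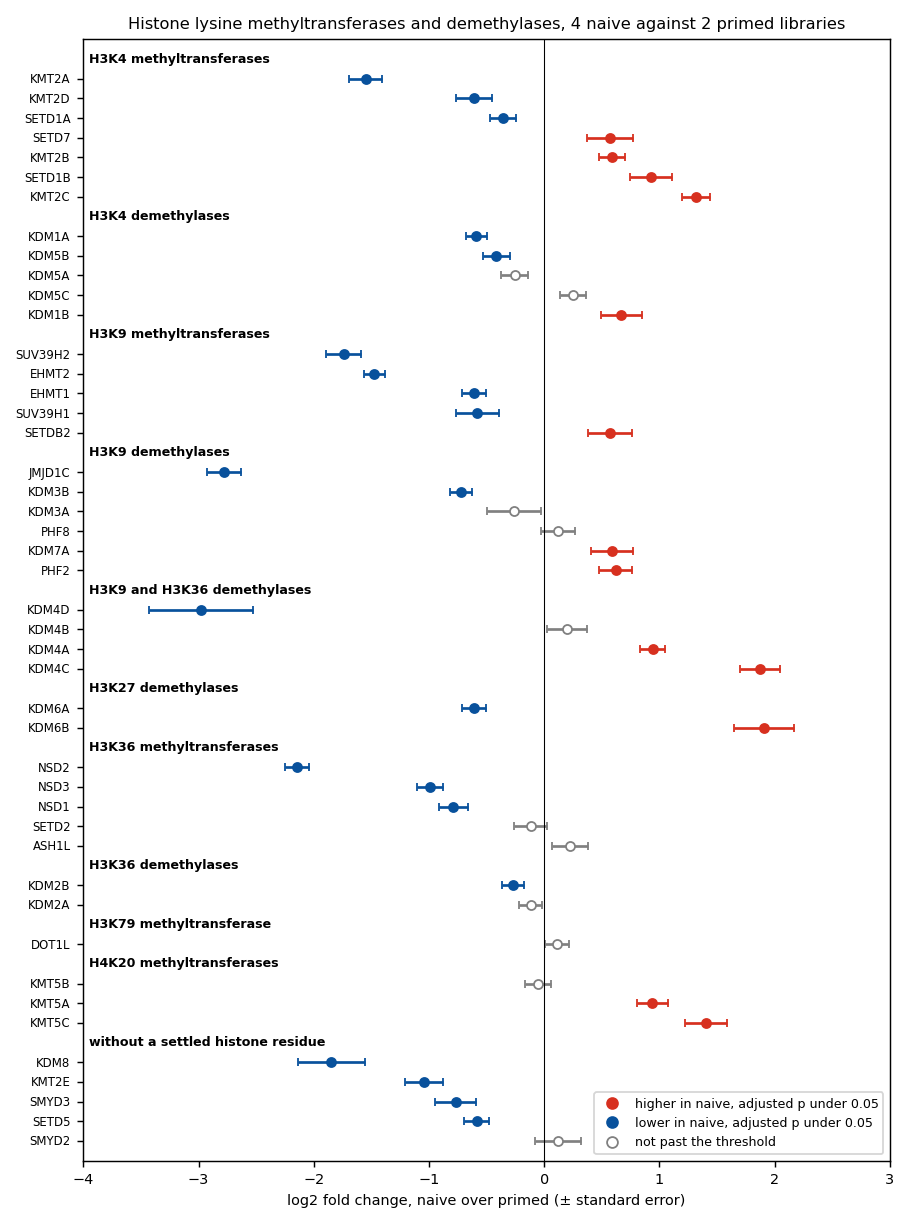
Log2 fold change of each of the 45 members, naive over primed, with its standard error, grouped by histone residue. Red marks genes higher and blue genes lower in naive cells at an adjusted p under 0.05, and open grey points did not pass. KDM4D (-2.98) and JMJD1C (-2.78) lie furthest to the left, and KDM6B (1.91) and KDM4C (1.88) furthest to the right.

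Taken by activity, 7 of the 21 methyltransferases with a residue were higher and 10 lower, and 6 of the 19 demethylases were higher and 7 lower. Every one of the 34 called members had the same sign in each of the 4 differences between a naive library and its own parental primed library. These differences share the EOS primed library in 3 of the 4 cases, and the choice of called genes favours such a result. Of the 4 members on chromosome X, KDM6A and SUV39H1 were lower, and KDM5C and PHF8 did not pass. The median over 979 tested names of that chromosome was -0.26. In levels per kb of transcript, KDM1A stood first in both states, at 100.3 CPM per kb in naive and 150.96 CPM per kb in primed libraries, and the order after it depended on the state. In naive libraries KDM4A (33.9 CPM per kb), KDM5C (28.2) and SETD5 (26.1) followed, of which KDM5C and SETD5 differed by less than the spread of their libraries. In primed libraries EHMT2 (55.1 CPM per kb), SETD5 (39.2) and EHMT1 (32.8) followed, whereas EHMT2 was at 19.9 CPM per kb in naive libraries. KDM4D was last in both states, at 0.161 CPM per kb in naive and 1.27 CPM per kb in primed libraries.

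The H3K4 methyltransferases moved in both directions, 4 higher and 3 lower, with none left uncalled (median log2FC 0.57). In the values that follow, naive libraries are in the order VPA naive, CA-p38 naive, AICAR naive 1 and AICAR naive 2, and primed libraries in the order EOS primed and CA-p38 primed. KMT2A, which encodes MLL1, the methyltransferase of Hox gene promoters (chromosome 11, 118436456 to 118526832 on GRCh38), had 28.2, 33.3, 32.9 and 30.7 CPM in naive and 75.5 and 108 CPM in primed libraries. All naive libraries lay below both primed ones, and the log2FC was -1.55 ± 0.14 (SE, adjusted p = 1.05e-06), the lowest of the group. KMT2C, which encodes MLL3, an enhancer methyltransferase (chromosome 7, 152134922 to 152436644), had 101, 116, 103 and 111 CPM in naive and 39.3 and 47.1 CPM in primed libraries. It was higher in every naive library, by 1.32 ± 0.12 (SE, adjusted p = 1.25e-06) on the log2 scale. Its near-identical genomic copies elsewhere could take or give reads in the authors' counting, so this value is uncertain to that extent. KMT2D, which encodes MLL4, the closest relative of KMT2C, went the other way, from 148 and 206 CPM in primed to 91.2, 124, 119 and 129.7 CPM in naive libraries, a log2FC of -0.61 ± 0.15 (SE, adjusted p = 0.00458). Without CA-p38 primed it was -0.35 and did not pass (adjusted p = 0.132).

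KMT2B, which encodes MLL2, a methyltransferase of bivalent promoters, had the highest naive level of this group per kb, 16.3 CPM per kb against 12.2 for SETD1A, but in primed libraries it was at 10.9 CPM per kb and SETD1A at 15.6. It had 121, 145, 153 and 136 CPM in naive and 92.9 and 91.7 CPM in primed libraries, a log2FC of 0.59 ± 0.11 (SE, adjusted p = 0.000744). KMT2A and KMT2B therefore changed in opposite directions, as did KMT2C and KMT2D. The SET1 enzymes, which deposit most promoter H3K4 trimethylation, split as well. SETD1A had 65.3, 70.3, 78.1 and 78.7 CPM in naive and 89.7 and 97.7 CPM in primed libraries, a log2FC of -0.36 ± 0.11 (SE, adjusted p = 0.0174), which did not pass with library totals as scaling (adjusted p = 0.0716) or without CA-p38 primed (adjusted p = 0.142). SETD1B rose by 0.93 ± 0.18 (SE, adjusted p = 0.000849). SETD7, a monomethyltransferase that also acts on non-histone proteins, had 11.3, 16.4, 14.5 and 17.4 CPM in naive and 9.997 and 10.1 CPM in primed libraries. Its log2FC was 0.57 ± 0.20 (SE, adjusted p = 0.0263), and leaving out CA-p38 naive, AICAR naive 2, EOS primed or CA-p38 primed took it to adjusted p-values between 0.0612 and 0.120. The summed level of the 7 genes was 54.1 ± 5.67 CPM per kb (SD, n = 4) in naive and 49.6 ± 5.19 CPM per kb (SD, n = 2) in primed libraries, values that overlapped.

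Of the 5 H3K4 demethylases, KDM1B was higher, KDM1A and KDM5B were lower, and KDM5A and KDM5C did not pass. KDM1A, which encodes LSD1 (chromosome 1, 23019443 to 23083689), had 290.3, 319.5, 323 and 305 CPM in naive and 477 and 454 CPM in primed libraries. The naive libraries lay close together and below both primed ones, with a log2FC of -0.59 ± 0.09 (SE, adjusted p = 0.000106). Even so, its naive level of 100.3 CPM per kb exceeded that of every other member in either state. KDM1B, which encodes LSD2 and removes H3K4 methylation in the oocyte for the setting of imprints, had 18.7, 25.2, 18.5 and 24.4 CPM in naive and 12.8 and 14.5 CPM in primed libraries. Its log2FC was 0.67 ± 0.18 (SE, adjusted p = 0.00685), opposite in sign to KDM1A, and 0.57 without EOS primed (adjusted p = 0.0759). KDM5B, a demethylase of trimethylated H3K4, had 183, 217, 189.6 and 184 CPM in naive and 285 and 230.1 CPM in primed libraries, a log2FC of -0.41 ± 0.11 (SE, adjusted p = 0.00803) that was -0.26 without EOS primed (adjusted p = 0.136). KDM5C had 164, 159, 185 and 147 CPM in naive and 144 and 130.3 CPM in primed libraries, with 0.25 ± 0.11 (SE, adjusted p = 0.0758). It passed with library totals as scaling, with a minimum of 10 counts in every library and without AICAR naive 2 (adjusted p = 0.0138 to 0.0448). KDM5A had -0.25 ± 0.12 (SE, adjusted p = 0.0871).

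Among the 5 H3K9 methyltransferases, 4 were lower and 1 was higher in naive cells, with a median log2FC of -0.61. EHMT2, which encodes G9a and acts with EHMT1 as a dimer on H3K9 mono- and dimethylation, had 81.1, 81.0, 76.0 and 78.0 CPM in naive and 211 and 227 CPM in primed libraries. These values left a gap of more than 2-fold between the states, with a log2FC of -1.47 ± 0.09 (SE, adjusted p = 3.42e-08). EHMT2 lies in the major histocompatibility region of chromosome 6, which has alternative sequences, and its counts come from 7 identifiers. Each of the 7 had a naive to primed ratio of raw counts between 0.362 and 0.394. The identifiers stand for copies of the same gene, which can share reads, so their likeness is not a separate check of the difference. EHMT1, which encodes GLP, was lower by less, with a log2FC of -0.61 ± 0.10 (SE, adjusted p = 0.000295). SUV39H2, one of the enzymes that trimethylate H3K9 in heterochromatin, showed the lowest value of the group (chromosome 10, 14878820 to 14904315). It had 13.1, 15.4, 13.7 and 13.9 CPM in naive and 39.3 and 54.4 CPM in primed libraries, a log2FC of -1.74 ± 0.15 (SE, adjusted p = 6.34e-07).

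Its relative SUV39H1, on chromosome X, had 12.1, 12.4, 18.1 and 14.3 CPM in naive and 19.1 and 23.4 CPM in primed libraries. The log2FC was -0.58 ± 0.19 (SE, adjusted p = 0.0188), and -0.42 without CA-p38 primed (adjusted p = 0.197). SETDB2, the only member of the group that was higher, had 13.6, 16.8, 14.8 and 13.4 CPM in naive and 8.16 and 11.5 CPM in primed libraries. Its log2FC of 0.57 ± 0.19 (SE, adjusted p = 0.0235) did not pass without CA-p38 naive, without AICAR naive 1 or without EOS primed (adjusted p = 0.0501 to 0.268). The summed level of the group was 53.5 ± 1.80 CPM per kb (SD, n = 4) in naive and 113 ± 10.2 CPM per kb (SD, n = 2) in primed libraries, a ratio of 0.475, the lowest of the 11 groups.

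The 6 H3K9 demethylases were split evenly, 2 higher, 2 lower and 2 not passed. JMJD1C, a large Jumonji protein of the KDM3 family (chromosome 10, 63167221 to 63521850), whose promoter is printed above, had 21.3, 31.9, 30.7 and 32.8 CPM in naive and 194 and 206 CPM in primed libraries. The primed level was 6.86-fold higher, with a log2FC of -2.78 ± 0.15 (SE, adjusted p = 7.67e-09). KDM3B, a demethylase of mono- and dimethylated H3K9 with the highest level of the group per kb, fell from 174 and 182 CPM in primed to 102, 118, 105 and 108 CPM in naive libraries, a log2FC of -0.72 ± 0.10 (SE, adjusted p = 4.19e-05). KDM3A, the third gene of the same family, had 65.3, 62.4, 47.8 and 41.9 CPM in naive and 86.9 and 43.4 CPM in primed libraries. In 3 of the 4 naive libraries it lay between the primed values, with AICAR naive 2 below both, and its log2FC was -0.26 ± 0.24 (SE, adjusted p = 0.374). Without EOS primed it turned to 0.31 (adjusted p = 0.298), and without CA-p38 primed it was -0.67 and passed (adjusted p = 0.0216).

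PHF2, a Jumonji protein with a PHD finger that reads H3K4 methylation, was the highest of the group by fold change. It had 37.8, 39.3, 43.5 and 32.8 CPM in naive and 23.7 and 26.1 CPM in primed libraries, a log2FC of 0.62 ± 0.14 (SE, adjusted p = 0.00253). KDM7A, of the same subfamily, had 28.2, 39.4, 31.9 and 34.2 CPM in naive and 26.6 and 17.8 CPM in primed libraries and rose by 0.59 ± 0.18 (SE, adjusted p = 0.0157), a value that was 0.34 without CA-p38 primed (adjusted p = 0.210). PHF8, on chromosome X, had 41.7, 44.2, 58.2 and 43.8 CPM in naive and 41.7 and 44.7 CPM in primed libraries. AICAR naive 1 stood above the other naive libraries, and the log2FC of 0.12 ± 0.15 (SE, adjusted p = 0.511) became -0.01 without it. The summed level of the 6 genes was 49.2 ± 3.20 CPM per kb (SD, n = 4) in naive and 77.1 ± 4.80 CPM per kb (SD, n = 2) in primed libraries. Within these sums, JMJD1C alone stood at 3.33 CPM per kb in naive and 22.8 CPM per kb in primed libraries.

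The KDM4 enzymes, which remove di- and trimethylation from H3K9 and, for KDM4A to KDM4C, from H3K36, spanned the widest range of any group. KDM4C (chromosome 9, 6720863 to 7175648) had 84.2, 98.9, 85.0 and 67.4 CPM in naive and 26.2 and 19.5 CPM in primed libraries. All naive libraries exceeded both primed ones by more than 2-fold, with a log2FC of 1.88 ± 0.17 (SE, adjusted p = 1.25e-06). KDM4A, the gene of this group with the highest level per kb, had 145, 162, 155 and 146 CPM in naive and 75.1 and 83.5 CPM in primed libraries, a log2FC of 0.94 ± 0.11 (SE, adjusted p = 7.71e-06). KDM4D (chromosome 11, 94973709 to 94999519), which lacks the reader domains of the others, was barely detected in naive cells. It had 0.554, 0.613, 0.147 and 0.584 CPM in naive, from 8 counts in AICAR naive 1 to 31 counts in the highest naive library, and 4.69 and 2.80 CPM in primed libraries. The log2FC was -2.98 ± 0.45 (SE, adjusted p = 0.000110), with the largest standard error of all members. KDM4B overlapped between the states, with 56.7, 64.6, 52.3 and 57.2 CPM in naive and 62.9 and 37.7 CPM in primed libraries and a log2FC of 0.20 ± 0.17 (SE, adjusted p = 0.361). Without EOS primed it was 0.60 and passed (adjusted p = 0.0107), and without CA-p38 primed it was -0.12 (adjusted p = 0.590). The summed level of the 4 genes was 63.7 ± 5.14 CPM per kb (SD, n = 4) in naive and 33.2 ± 3.39 CPM per kb (SD, n = 2) in primed libraries, the highest ratio of the groups at 1.92.

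The H3K27 demethylases differed in opposite directions. KDM6B, which encodes JMJD3 (chromosome 17, 7834217 to 7854796), had 92.2, 105, 98.1 and 101 CPM in naive libraries, a narrow range, and 37.1 and 15.7 CPM in primed libraries. Its log2FC was 1.91 ± 0.26 (SE, adjusted p = 3.99e-05), the highest of the 45 members, 1.42 without CA-p38 primed and 2.65 without EOS primed. KDM6A, which encodes UTX, the H3K27 demethylase of the KMT2C and KMT2D complexes, had 50.7, 49.2, 53.2 and 49.1 CPM in naive and 73.1 and 81.2 CPM in primed libraries. It was lower in every naive library, with a log2FC of -0.61 ± 0.11 (SE, adjusted p = 0.000327). In level per kb, KDM6B stood at 14.7 CPM per kb and KDM6A at 8.29 CPM per kb in naive libraries, and at 3.93 and 12.7 CPM per kb in primed libraries, so that their order changed between the states.

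**Figure D2:**
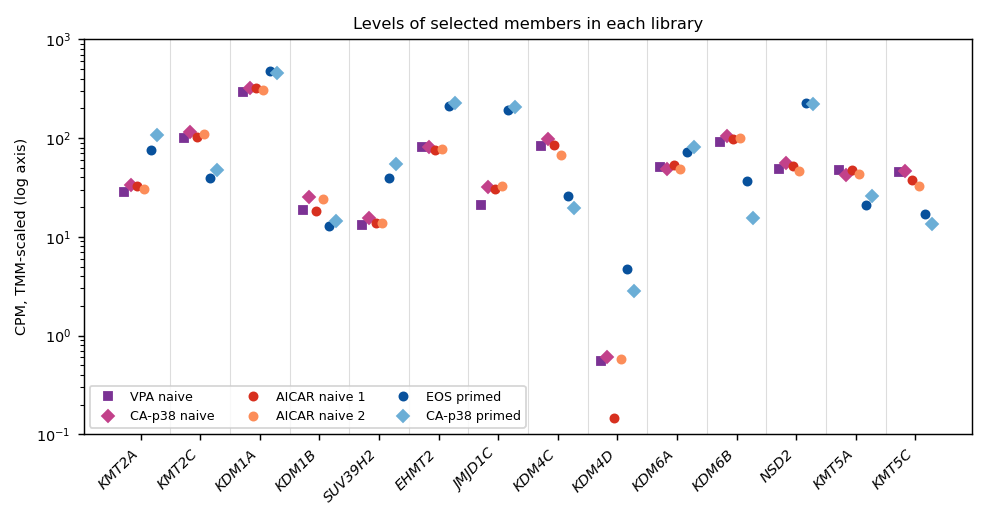
CPM of 14 members in each of the 6 libraries on a log axis, with purple to orange symbols for naive and blue symbols for primed libraries and diamonds for the CA-p38 line. KDM6B has a narrow naive range and primed values that are 2.37-fold apart, and KDM4D has its lowest value in AICAR naive 1 at 0.147 CPM.

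All 3 NSD genes, which encode enzymes of H3K36 mono- and dimethylation, were lower in naive cells. NSD2 (chromosome 4, 1871393 to 1982207) had 48.7, 56.0, 52.2 and 46.4 CPM in naive and 226 and 224 CPM in primed libraries. The primed level was 4.43-fold higher, with a log2FC of -2.15 ± 0.10 (SE, adjusted p = 2.74e-09), and NSD2 went from the highest of the group per kb in primed cells (29.8 CPM per kb) to below NSD1 and SETD2 in naive cells (6.72 against 11.2 and 13.3 CPM per kb). NSD3 fell as well, with a log2FC of -0.99 ± 0.11 (SE, adjusted p = 8.22e-06), and so did NSD1, with -0.79 ± 0.13 (SE, adjusted p = 0.000159). SETD2, the enzyme of H3K36 trimethylation behind RNA polymerase II, did not pass. It had 96.4, 131, 117 and 111 CPM in naive and 106 and 141 CPM in primed libraries, with -0.12 ± 0.14 (SE, adjusted p = 0.506), and 0.11 without CA-p38 primed. ASH1L, an antagonist of Polycomb, had the highest value of the group, 0.22 ± 0.15 (SE, adjusted p = 0.241), from 33.0, 45.6, 40.6 and 46.7 CPM in naive and 32.7 and 38.3 CPM in primed libraries. The summed level of the 5 genes was 39.3 ± 3.68 CPM per kb (SD, n = 4) in naive and 75.7 ± 6.75 CPM per kb (SD, n = 2) in primed libraries, a ratio of 0.519.

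The H3K36 demethylases KDM2A and KDM2B, which bind unmethylated CpG islands, had small fold changes. KDM2B, which recruits a Polycomb complex to such islands, had 123, 137, 129 and 129 CPM in naive and 152 and 159.7 CPM in primed libraries, a log2FC of -0.27 ± 0.10 (SE, adjusted p = 0.0324). The call was lost with library totals as scaling, with the parental line as a block (adjusted p = 0.0571), and without AICAR naive 1, AICAR naive 2 or either primed library. KDM2A had 91.5, 90.5, 90.0 and 103 CPM in naive and 102 and 101 CPM in primed libraries, and its log2FC was -0.12 ± 0.10 (SE, adjusted p = 0.357). DOT1L, the only H3K79 methyltransferase, had 91.2, 97.2, 98.1 and 88.1 CPM in naive and 83.6 and 89.8 CPM in primed libraries, with 0.11 ± 0.10 (SE, adjusted p = 0.387).

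Of the H4K20 methyltransferases, KMT5A and KMT5C were higher in naive cells and KMT5B did not pass. KMT5A, the enzyme of H4K20 monomethylation, which peaks in mitosis, had 47.9, 42.5, 47.2 and 42.9 CPM in naive and 20.9 and 26.1 CPM in primed libraries, a log2FC of 0.94 ± 0.14 (SE, adjusted p = 7.79e-05). KMT5C, which makes trimethylated H4K20 in heterochromatin (chromosome 19, 55339853 to 55348121), had 45.4, 46.9, 37.3 and 32.7 CPM in naive and 17.2 and 13.5 CPM in primed libraries. Every naive library was above both primed ones, and the log2FC was 1.40 ± 0.18 (SE, adjusted p = 2.53e-05). KMT5B, which shares its substrate with KMT5C, had 53.8, 60.5, 61.6 and 53.9 CPM in naive and 58.7 and 60.3 CPM in primed libraries, with -0.05 ± 0.11 (SE, adjusted p = 0.724). The sign of that value turned with library totals as scaling (0.05). KMT5B and KMT5C stood at 10.04 and 17.8 CPM per kb in naive libraries, and at 10.4 and 6.71 CPM per kb in primed libraries.

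Of the 5 family genes without a settled histone residue, 4 were lower and none was higher at the threshold. KDM8, a Jumonji hydroxylase, had 2.41, 1.29, 2.35 and 2.07 CPM in naive and 6.04 and 8.60 CPM in primed libraries, a log2FC of -1.85 ± 0.29 (SE, adjusted p = 0.000146). KMT2E, which encodes MLL5, an MLL family protein without shown methyltransferase activity, fell with a log2FC of -1.04 ± 0.16 (SE, adjusted p = 0.000142). SETD5, the highest of these genes per kb, had 154, 196, 195 and 179.7 CPM in naive and 278 and 266 CPM in primed libraries, with -0.59 ± 0.11 (SE, adjusted p = 0.000601). SMYD3, which methylates cytoplasmic substrates as well, fell with a log2FC of -0.77 ± 0.18 (SE, adjusted p = 0.00312). SMYD2, a methyltransferase of histone and non-histone proteins, had 13.4, 16.5, 18.3 and 16.7 CPM in naive and 11.6 and 18.2 CPM in primed libraries. In 3 of the 4 naive libraries it lay between the primed values, with AICAR naive 1 slightly above both, its log2FC was 0.12 ± 0.20 (SE, adjusted p = 0.637), and the sign turned without EOS primed (-0.18).

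**Figure D3:**
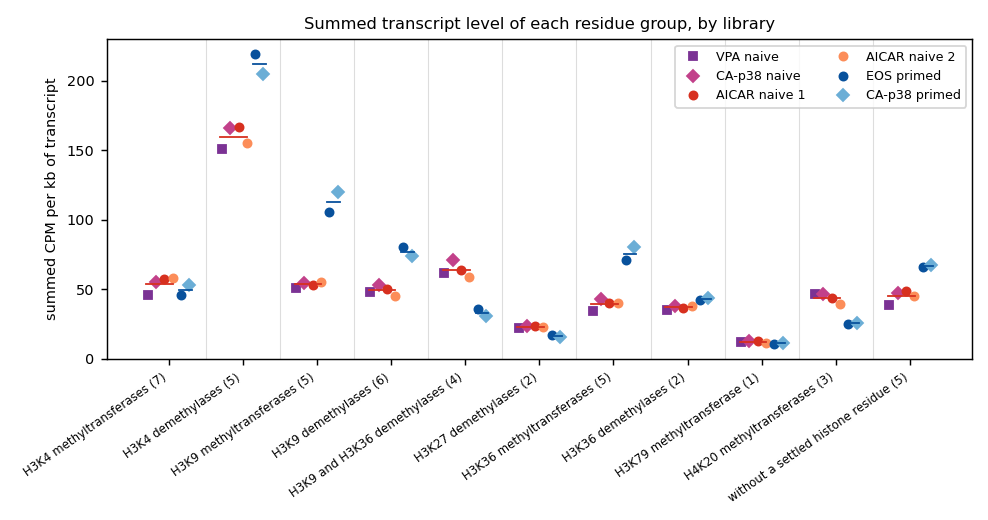
Summed CPM per kb of transcript for each group of genes in each library, with the number of genes in parentheses and a short line at the mean of each state. Sums for the methyltransferases of H3K9 and H3K36 are lower in all naive libraries. So are those for the demethylases of H3K4, H3K9 and H3K36 and for the group without a settled residue. Most of the H3K4 demethylase sum is KDM1A. It makes up 100.3 of 159.7 CPM per kb in naive and 150.96 of 212 CPM per kb in primed libraries. KDM1B, and KDM5C without passing, lie above both primed libraries in every naive library. Sums for the KDM4 group, the H3K27 demethylases and the H4K20 methyltransferases are higher in all naive libraries. Sums for the H3K4 and H3K79 methyltransferases overlap between the states.

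The primed libraries differed from each other for some of the demethylases more than for most genes. Of the 44 members with at least 5 CPM in both, 3 were over 1.5-fold higher in EOS primed than in CA-p38 primed, namely KDM6B (2.37-fold), KDM3A (2.005-fold) and KDM4B (1.67-fold). Over all 11953 genes at that level, 2.05% were that much higher in EOS primed and 3.35% were that far apart in either direction. SMYD2 was the only member over 1.5-fold lower, at 0.639. Below that level, KDM4D had a ratio of 1.67, close to that of KDM4B, and KDM7A stood just under 1.5-fold at 1.49. With 1 library per line, these ratios have no replicate check. In a list of 16 hypoxia-responsive genes, chosen after values of the primed libraries had been seen, all 16 were higher in EOS primed, 13 of them over 1.5-fold, with a median ratio of 1.96 and a range of 1.20 to 5.65. Their summed level was 5085 CPM in EOS primed, 3298 CPM in CA-p38 primed and 2266 to 3038 CPM in naive libraries. Several of these demethylase genes are known as hypoxia-inducible, among them KDM3A and KDM4B, and the part of hypoxia in these ratios was not tested.

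**Figure D4:**
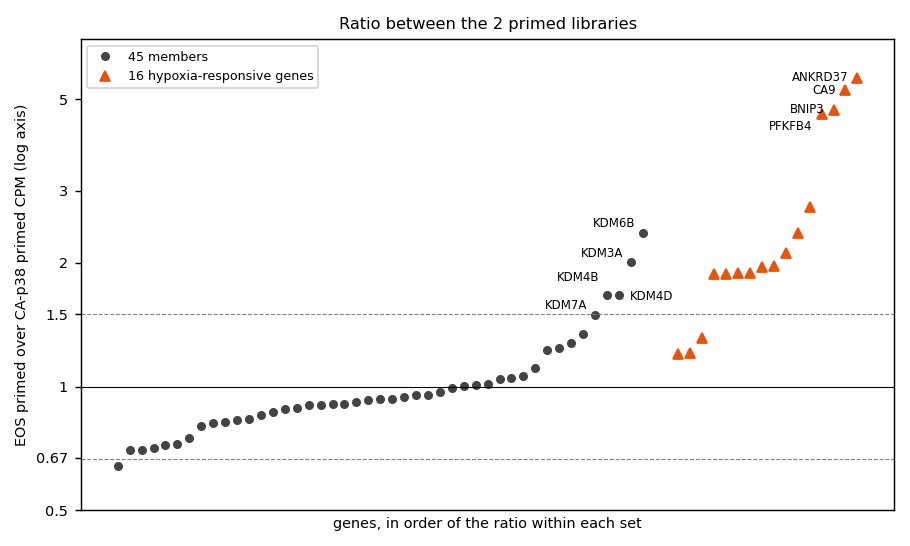
Ratio of CPM in EOS primed over CA-p38 primed on a log axis, for the 45 members (circles) and 16 hypoxia-responsive genes (triangles), each set in order of its ratio. Dashed lines mark 1.5-fold in either direction, and KDM6B at 2.37 and KDM3A at 2.005 are the highest circles, below the highest triangles.

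The difference between naive and primed cells was also set against the parental line, by an interaction of state and line over all 6 libraries, a fit added after seeing the data. Both primed libraries and CA-p38 naive stand alone in it, so its spread between libraries comes from the 3 naive libraries of the EOS line. For every gene, its value rests in part on the ratio between the single primed libraries. No member passed by edgeR at an adjusted p under 0.05 (1 gene of all 26497 did, 0.00377%), and 7 of 45 were under an unadjusted p of 0.05, against 3.22% of all genes. These were KDM6B, KDM4B, KDM3A, KDM7A, KDM5B and KDM4C, each with a more positive naive over primed fold change in the CA-p38 line, and KDM8 with a more negative one. Their ratios of EOS primed over CA-p38 primed that were not given above were 1.24 for KDM5B, 1.34 for KDM4C and 0.702 for KDM8. Within lines, KDM6B was 2.70 higher on the log2 scale in CA-p38 naive than in CA-p38 primed, and 1.39, 1.43 and 1.30 higher in AICAR naive 1, AICAR naive 2 and VPA naive than in EOS primed. Among the naive libraries themselves, of 43 members with at least 5 CPM in each, 4 had a highest value at least 1.5-fold over the lowest, against 13.1% of genes at that level.

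The genes that work with these enzymes were taken from 6 lists with 75 genes, of which 74 were tested. In naive cells 19 were higher and 35 lower, and 20 did not pass, with a median log2FC of -0.28. The 54 called are 72.0% of the 75, beside 53.1% of all names and 64.7% of protein-coding genes. The count of higher genes was 11 without EOS primed, 12 without AICAR naive 1 and 14 with DESeq2 or median-ratio size factors. Of 13 COMPASS and MLL complex subunits, 4 were higher and 6 lower. ASH2L, a core subunit that activates the SET domain, rose by 2.44 ± 0.10 (SE, adjusted p = 1.09e-09) from 52.7 ± 0.0218 CPM (SD, n = 2) to 286 ± 11.4 CPM (SD, n = 4). PSIP1, which encodes the chromatin tether of the MLL1 complex, fell with a log2FC of -2.001 ± 0.09 (SE, adjusted p = 1.48e-09). Of 10 CoREST subunits and other partners of KDM1A and KDM1B, 2 were higher and 6 lower. The paralogous scaffolds moved apart, RCOR1 with 1.02 ± 0.11 (SE, adjusted p = 6.72e-06) and RCOR2 with -3.98 ± 0.12 (SE, adjusted p = 5.25e-11), and RCOR2 had 7.50, 8.19, 8.33 and 7.99 CPM in naive and 136 and 116 CPM in primed libraries.

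Of 11 H3K9 methylation partners and HP1 proteins, 1 was higher and 6 were lower. CBX5, which encodes HP1 alpha, a reader of H3K9 methylation, had 51.1, 60.8, 53.4 and 51.6 CPM in naive and 381 and 397 CPM in primed libraries, a log2FC of -2.84 ± 0.10 (SE, adjusted p = 2.07e-10). MPHOSPH8, a subunit of the HUSH silencing complex, rose by 0.76 ± 0.11 (SE, adjusted p = 0.000105). Of 10 DOT1L and H3K36 methylation partners, 1 was higher and 5 were lower, from MLLT6 with 1.48 ± 0.16 (SE, adjusted p = 6.14e-06) to MLLT3, a reader of acetylated histones that binds DOT1L, with -1.79 ± 0.23 (SE, adjusted p = 3.00e-05).

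Of 17 tested genes in the wider methyltransferase and demethylase families, 6 were higher and 5 lower. PRDM9 had too few counts to be tested. SETMAR, a SET domain protein fused to a transposase, had the lowest value, -2.03 ± 0.18 (SE, adjusted p = 7.99e-07). KDM4E, a relative of KDM4D on the same chromosome, had 86, 36, 158 and 245 counts in naive libraries and 0 in both primed libraries. Set against a floor of 3 counts per primed library, its naive mean of 2.55 CPM was at least 41.8-fold higher, and the lowest naive library at least 11.7-fold higher. KDM4D and KDM4E share similar coding sequence, and reads between them were not separated here beyond the authors' mapping.

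Of 13 genes that supply S-adenosylmethionine and 2-oxoglutarate, the co-substrates of the enzymes, 5 were higher and 7 lower. The ends of this list were isocitrate dehydrogenases. IDH3G, a subunit of the mitochondrial NAD-dependent enzyme, rose from 29.1 ± 1.58 CPM (SD, n = 2) to 81.1 ± 10.2 CPM (SD, n = 4), by 1.48 ± 0.14 (SE, adjusted p = 1.64e-06). IDH2, the mitochondrial NADP-dependent enzyme, fell from 116 and 100.1 CPM in primed to 21.5, 20.7, 14.4 and 22.9 CPM in naive libraries, a log2FC of -2.44 ± 0.16 (SE, adjusted p = 4.90e-08). In bulk libraries, fewer cells with a transcript and less of it per cell cannot be told apart, for these genes as for the members.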

How the data were processed

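The authors deposited whole-number counts per Ensembl gene identifier, without normalization. Per the methods of the study, polyadenylated RNA was made into libraries with a SMART-Seq Stranded kit, reads were trimmed, mapped with Bowtie2 to the transcripts of Ensembl GRCh38 and summed per gene; the submitters' processing notes also name RSEM, limma, Trim Galore 0.4.4 and cutadapt 1.15. Whether counting used the strand is not given in the sources used here, so overlapping antisense transcripts cannot be told apart. Reads of mouse feeder cells were not separated. Of the table, 6 columns were used and 23 columns of other studies were not.

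From these counts, 26 spike-in sequences were left out and the counts of identifiers that share a name were summed, which turned 61196 identifiers into 48183 names, 6932 of them with several identifiers. Of the 45 members, 44 have 1 identifier. The test of naive (n = 4) against primed (n = 2) libraries was made in edgeR 4.0.16 under R 4.3.3 (TMM factors 0.936 to 1.06, filterByExpr by state, glmQLFit and glmQLFTest, no covariate), with Benjamini-Hochberg adjustment over the 26497 names tested and a threshold of 0.05. Standard errors come from the same test. Exact permutation of 4 and 2 libraries has a smallest two-sided p of 0.0667 and was not used. Intervals for single counts were not needed, and a count of 0 was set at a floor of 3 counts, which covers counting error only. Gene positions and transcript lengths came from GENCODE 44, and promoters from RefSeq on GRCh38.p14, of which 42 members had an entry. The fit was also run on simulated counts, with less spread between libraries and far fewer changed genes than in these data. That run cannot vouch for error rates here, and no result rests on it.

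The list of members and the other gene lists were drawn up with earlier results of these data known, although the rule that takes the members from the table uses symbols alone. Every member is named under its residue. Full statistics were given to the highest and lowest fold change and the highest level in each group and to members whose call changed in an alternative, and, in each of the 6 lists of partner genes, to the highest and lowest fold change among called genes. The alternatives were median-ratio size factors, library totals, DESeq2 1.42.0, limma-voom 3.58.1, a filter at 1 count, a block for the parental line, a minimum of 10 counts everywhere, the highest-count identifier alone, a sum of the AICAR libraries, and the omission of single libraries. The other steps used pandas 2.3.3, numpy 2.4.6 and scipy 1.17.1 in Python 3.11.15, and figures matplotlib 3.10.9.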

Additional observations from a re-analysis of the deposited data

Results flagged for a closer look

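In 3 members, 1 of the 4 naive libraries stood so far from the others that the gap passed the 95% limit of Dixon's test, which flags about 1 in 20 groups by chance. PHF8 had 58.2 CPM in AICAR naive 1 and 41.7 to 44.2 CPM in the other naive libraries. KDM4D had 0.147 CPM in AICAR naive 1, from 8 counts, and 0.554 to 0.613 CPM in the others. KDM2A had 103 CPM in AICAR naive 2 and 90.0 to 91.5 CPM in the others. With 45 members looked at, 3 such cases are near the number that chance gives.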

How the results depend on the processing

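Over the 15 alternatives, 11 to 14 members were higher and 18 to 21 lower in naive cells, and 29 of the 45 kept both their sign and their side of the threshold in all of them. Of the 34 called members, 25 never lost the call. The causes of the changes that follow were not tested. With library totals as scaling, the median log2 fold change of all names moved from 0.11 to 0.21 and that of the members from -0.25 to -0.15, the split of all calls went from 6893 higher and 7165 lower to 7620 and 6498, KMT5B turned to 0.047, KDM2B and SETD1A lost the call, and KDM5C gained it. With a minimum of 10 counts in every library, 44 members were tested, KDM4D was left out, the members' median was -0.16, and KDM5C passed. With the parental line as a block, KDM2B was the only member to change, with an adjusted p of 0.0571. With the AICAR libraries summed to 1, 13 members were higher and 21 lower. Without 1 library, the members' median ran from -0.30 to -0.16, the partner genes higher in naive cells numbered 11 to 19 (11 without EOS primed, 12 without AICAR naive 1), and those lower 28 to 35. KDM3A ran from -0.67 to 0.31, PHF8 from -0.012 to 0.18, KDM4B from -0.12 to 0.60, SETD2 from -0.32 to 0.11 and SMYD2 from -0.18 to 0.49. The fold change of KDM6B ran from 1.42 to 2.65 and that of KDM4D, the member with the fewest counts, from -3.29 to -2.57. With 2 primed libraries, leaving out either leaves a lone primed sample that is assumed to vary like the naive ones.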
